A study of Mus musculus with 2 samples.

Results

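The microRNA (miRNA) genes Mir106b, Mir93 and Mir25 form the Mir106b-25 cluster, and Mir106a, Mir18b, Mir20b, Mir19b-2, Mir92-2 and Mir363 form the Mir106a-363 cluster. These 9 genes were taken by symbol from the 1973 miRNA genes counted in embryonic limb tissue of the mouse (Mus musculus), and sense counts were used. The embryos were of strain B6NCrl, 15.5 days old, of mixed sex and described as healthy, with no genetic or drug treatment named. Limbs were pooled from 78 embryos in replicate 1 and 62 in replicate 2. The series had 1 group of 2 biological replicates and no control, so levels were described and the libraries were compared with each other.

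Both clusters are paralogs of the Mir17-92 cluster, and each yields several miRNAs from a single primary transcript. A miRNA finds its messenger RNA targets mainly through its seed, bases 2 to 8 from its 5′ end, so genes with the same seed are grouped as a family. The miR-17 family is known to repress Cdkn1a, an inhibitor of the cell cycle, and Bcl2l11, which promotes cell death. The miR-25 family also represses Bcl2l11. Mir106b-25 lies within Mcm7, a gene for a subunit of the replicative helicase, which is transcribed in dividing cells. In mice, loss of Mir106b-25 alone is tolerated, loss of Mir17-92 is lethal around birth, and loss of both is lethal earlier in the embryo. Loss of 1 copy of the Mir17-92 locus shortens digits in people (Feingold syndrome) and in mice.

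The 9 members carry 4 seeds, which assign each gene to its family. All 9 were found by symbol in the RefSeq miRNA table (GRCm38.p6), and the arm that names the family is given, 5′ to 3′, with the seed in capitals.
Mir106b (miR-106b-5p): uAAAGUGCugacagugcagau
Mir93 (miR-93-5p): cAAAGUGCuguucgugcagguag
Mir106a (miR-106a-5p): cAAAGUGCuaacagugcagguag
Mir20b (miR-20b-5p): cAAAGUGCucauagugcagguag
Mir18b (miR-18b-5p): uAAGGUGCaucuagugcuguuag
Mir19b-2 (miR-19b-3p): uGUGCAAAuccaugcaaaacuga
Mir25 (miR-25-3p): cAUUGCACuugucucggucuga
Mir92-2 (miR-92a-3p): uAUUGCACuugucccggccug
Mir363 (miR-363-3p): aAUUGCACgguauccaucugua

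Mir106b, Mir93, Mir106a and Mir20b share the miR-17 seed AAAGUGC, and Mir25, Mir92-2 and Mir363 share AUUGCAC. Within the miR-17 family, miR-106a-5p and miR-20b-5p differed at 2 of 23 bases, and miR-93-5p and miR-106a-5p at 4 of 23. Within the other family, miR-363-3p stood apart from miR-25-3p, with 13 mismatches over 22 bases, whereas miR-92a-3p and miR-25-3p differed at 3 of 21 bases. The deposited counts are per gene and do not separate the arms of a hairpin.

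For comparison, the matching arms of the Mir17-92 cluster show how close the paralogs are in sequence.
Mir17 (miR-17-5p): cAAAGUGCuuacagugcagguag
Mir20a (miR-20a-5p): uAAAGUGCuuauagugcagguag
Mir18 (miR-18a-5p): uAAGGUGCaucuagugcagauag
Mir19a (miR-19a-3p): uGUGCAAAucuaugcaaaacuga
Mir19b-1 (miR-19b-3p): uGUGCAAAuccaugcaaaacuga
Mir92-1 (miR-92a-3p): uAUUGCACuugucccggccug

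miR-106a-5p differs from miR-17-5p at 1 of 23 bases, and miR-18b-5p from miR-18a-5p at 2 of 23. Mir19b-2 and Mir92-2 give the same mature miRNA as Mir19b-1 and Mir92-1, with 0 mismatches. The hairpins of these 4 genes show where the copies can be told apart, with the longest stretch shared by a pair in capitals (25 bases for the miR-19b pair and 22 for the miR-92a pair).
Mir19b-2: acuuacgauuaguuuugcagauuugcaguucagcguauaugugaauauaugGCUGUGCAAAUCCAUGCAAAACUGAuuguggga
Mir19b-1: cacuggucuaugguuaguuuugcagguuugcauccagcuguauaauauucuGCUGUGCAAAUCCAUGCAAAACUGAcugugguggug
Mir92-2: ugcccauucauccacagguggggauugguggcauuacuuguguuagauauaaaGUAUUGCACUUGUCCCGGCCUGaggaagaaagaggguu
Mir92-1: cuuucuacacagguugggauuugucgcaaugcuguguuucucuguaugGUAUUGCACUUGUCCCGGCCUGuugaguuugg

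The shared stretch holds the whole mature arm in both pairs, so a read of that arm alone matches both copies. The tables total reads with several alignments on a line of their own (29.4% and 29.7% of all reads), and how reads of the identical arms were assigned is not given in the sources used here. Counts of Mir19b-2, Mir92-2, Mir19b-1 and Mir92-1, and totals that hold them, may therefore lack reads common to the copies. None of the other 7 members shared 20 bases with another listed hairpin, and their longest shared stretches were 12 to 17 bases. Reads themselves were not analysed here, so whether a copy was counted from its 5p arm or from longer reads was not tested.

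On mm10, the genes of the Mir106b-25 cluster span 498 bases of chromosome 5, from 138165321 to 138165818 on the minus strand. Mir106b (ENSMUSG00000065514.1, 138165737 to 138165818), Mir93 (ENSMUSG00000065527.1, 138165523 to 138165610) and Mir25 (ENSMUSG00000065394.1, 138165321 to 138165404) follow each other 5′ to 3′. All 3 lie in intron 13 of the 15-exon Mcm7 transcript, and Mir93 and Mir25 also lie within an annotated retained-intron transcript of Mcm7. The Mir106a-363 cluster spans 875 bases of chromosome X, from 52741693 to 52742567 on the minus strand. Its first hairpin, Mir106a (ENSMUSG00000065456.1, 52742503 to 52742567), overlaps up to 5 exonic bases at the 3′ end of Kis2, a processed transcript. No other gene is annotated on that strand over its other 5 hairpins, which end with Mir363 (52741693 to 52741767).

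**Figure D1:**
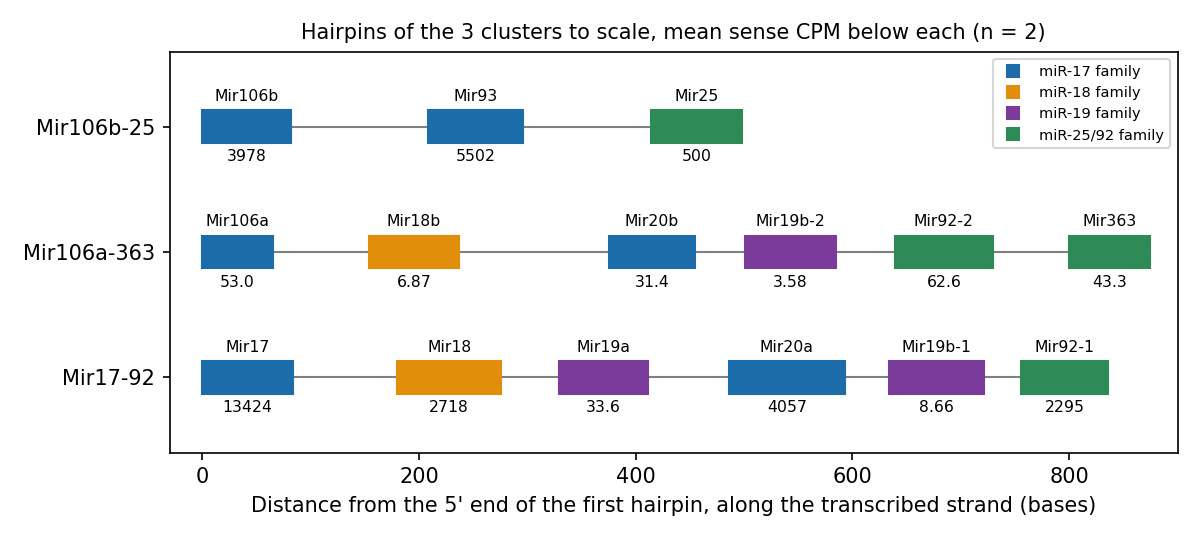
Hairpins of the clusters drawn to scale along their transcribed strand (x axis, bases from the 5′ end of the first hairpin), coloured by seed family, with the mean sense CPM of the 2 replicates under each gene. The Mir106b-25 hairpins carry 500 to 5502 CPM, the Mir106a-363 hairpins 3.58 to 62.6 CPM, and the Mir17-92 hairpins on the bottom line 8.66 to 13424 CPM.

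Sense counts summed to 4263630 in replicate 1 and 5151214 in replicate 2, and levels are counts per 1000000 of these (CPM). A read of this assay covers a whole miRNA, so levels were compared between genes without division by length. Whether sequences were captured equally well was not tested, and the SD between replicates does not cover such differences. The defining miRNAs of limb tissues were present, with the epidermal Mir203 at 72531 CPM, the cartilage Mir140 at 43163 CPM, the Hox cluster Mir196b at 40763 CPM and the muscle Mir206 at 7919 CPM on average. Of the other tissues, the liver Mir122 averaged 71.8 CPM, the erythroid Mir451a 332 CPM and the pluripotency Mir302a 9.29 CPM. The 3 neuronal Mir124a genes had 0 counts in both libraries. Reads that match several of these 3 copies may be missing, so 0 counts do not show that their miRNA was absent. Mir206 was 11050 CPM in replicate 1 and 4787 CPM in replicate 2, so the pools differed in muscle miRNA, and its part in the results below was not tested. Ratios between libraries are replicate 2 over replicate 1.

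The Mir106b-25 cluster had far more counts in the limb than the Mir106a-363 cluster. Its 3 genes took 0.920% and 1.08% of the sense counts in replicates 1 and 2, with Wilson 95% intervals of 0.911 to 0.929 and of 1.07 to 1.09. The 6 genes of Mir106a-363 took 0.0176% and 0.0226%, with intervals of 0.0164 to 0.0189 and of 0.0213 to 0.0239. Mir106b-25 had 52.3 times the counts of Mir106a-363 in replicate 1 and 47.7 times in replicate 2, a mean of 50.0 ± 3.29 (SD, n = 2). The gap between the clusters was many times the spread between replicates. It is a gap in counted reads, since the Mir106a-363 total may lack reads that Mir92-2 and Mir19b-2 share with their copies. These are bulk samples, in which fewer cells of a type and less RNA per cell cannot be told apart.

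Mir93, of the miR-17 family, was the highest member. It had 21646 counts in replicate 1 and 30535 in replicate 2, or 5077 and 5928 CPM, and ranked 40 and 32 among all miRNA genes. Mir106b, which represses Cdkn1a in human cells as Mir93 does, had 15542 and 22204 counts, or 3645 and 4310 CPM, with ranks 54 and 47. Mir25, at the 3′ end of the cluster, had 2017 and 2718 counts, or 473 and 528 CPM, with ranks 121 and 117. Values of the 3 genes did not overlap, and the lower library was replicate 1 for each. On average Mir93 stood at 5502 ± 602 CPM, Mir106b at 3978 ± 470 CPM and Mir25 at 500.4 ± 38.6 CPM (SD, n = 2).

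Mir93 took 55.2% of the cluster's counts in replicate 1 and 55.1% in replicate 2, although Mir106b is the first hairpin of the transcript. Mir106b took 39.6% and 40.0%, and Mir25 5.14% and 4.90%. The make-up of the cluster thus differed between the libraries by at most 0.395 percentage points for any gene. Mir93 exceeded Mir106b 1.38 ± 0.0124-fold and Mir25 11.0 ± 0.355-fold, and Mir106b exceeded Mir25 7.94 ± 0.328-fold (SD, n = 2). These folds varied less between the libraries than the levels themselves.

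All members of Mir106a-363 stood below every member of Mir106b-25. Each of their means also lay below the 71.8 CPM of the liver Mir122, and the cells that gave these counts were not identified. Mir92-2, a copy of miR-92a, led with 226 counts in replicate 1 and 372 in replicate 2, or 53.0 and 72.2 CPM. Mir106a, of the miR-17 family, had 207 and 296 counts, or 48.6 and 57.5 CPM. Mir363, of the miR-25 family, had 164 and 248 counts, or 38.5 and 48.1 CPM. Mir20b, of the miR-17 family and known in human breast cancer cells for repressing HIF1A and VEGFA, had 120 and 178 counts, or 28.1 and 34.6 CPM. These 4 genes formed the upper tier of the cluster, with mean ranks of 213 to 241 among all miRNA genes.

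Mir18b and Mir19b-2 formed a lower tier. Mir18b, of the miR-18 family, which represses Ctgf in mouse tumour cells, had 23 counts in replicate 1 and 43 in replicate 2, or 5.39 and 8.35 CPM. Mir19b-2, of the miR-19 family, had 9 and 26 counts, or 2.11 and 5.05 CPM. It missed the minimum of 10 counts in both libraries that was required to call a gene detected, so 8 of 9 members were detected. Its Wilson 95% interval ran from 1.11e-04 to 4.01e-04% of the sense counts in replicate 1 and from 3.44e-04 to 7.40e-04% in replicate 2, and covers counting error only.

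The 9 members had the same order in both libraries, from Mir93 down through Mir106b, Mir25, Mir92-2, Mir106a, Mir363, Mir20b and Mir18b to Mir19b-2. Of the 8 neighbouring pairs, 1, Mir92-2 with Mir106a, had values that overlapped between the genes. Mir106a and Mir363 were separated narrowly, with the lower value of Mir106a at 48.6 CPM and the higher value of Mir363 at 48.1 CPM, and Mir18b and Mir19b-2 likewise at 5.39 and 5.05 CPM. Within replicate 1 the Wilson intervals of Mir92-2 (0.00465 to 0.00604% of the sense counts) and Mir106a (0.00424 to 0.00556%) overlapped, as did those of Mir106a with Mir363 (0.00330 to 0.00448%), of Mir363 with Mir20b (0.00235 to 0.00337%), and of Mir18b (3.59e-04 to 8.10e-04%) with Mir19b-2. From the highest to the lowest member the levels differed 2405-fold in replicate 1 and 1174-fold in replicate 2, a fold that rests on the 9 and 26 counts of Mir19b-2.

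**Figure D2:**
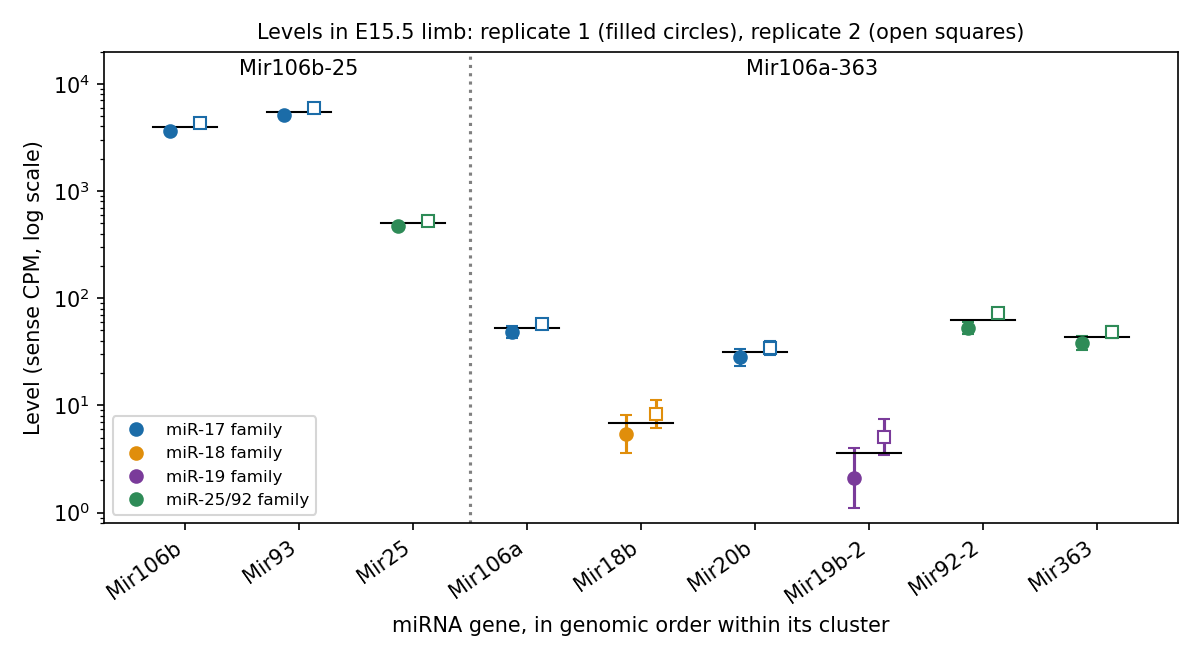
Sense CPM (log scale) of the 9 members in genomic order within their clusters, with replicate 1 as filled circles, replicate 2 as open squares, Wilson 95% intervals as bars and the mean of both as a line, coloured by seed family. The Mir106b-25 genes lie between 473 and 5928 CPM and the Mir106a-363 genes between 2.11 and 72.2 CPM.

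Unlike the Mir106b-25 cluster, no single gene held most of the counts of Mir106a-363. Mir92-2 took 30.2% and 32.0% of the cluster, with Wilson 95% intervals of 27.0 to 33.6 in replicate 1 and 29.4 to 34.7 in replicate 2. Mir106a took 27.6% and 25.5%, Mir363 21.9% and 21.3%, and Mir20b 16.0% and 15.3%. Mir18b took 3.07% and 3.70%, and Mir19b-2 1.20% and 2.24%. The Wilson intervals of each gene's share overlapped between the libraries for all 6 genes. Shares of Mir92-2 and Mir19b-2 may lack reads that match their copies on chromosome 14, so their true parts of the cluster are not known from these counts.

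**Figure D3:**
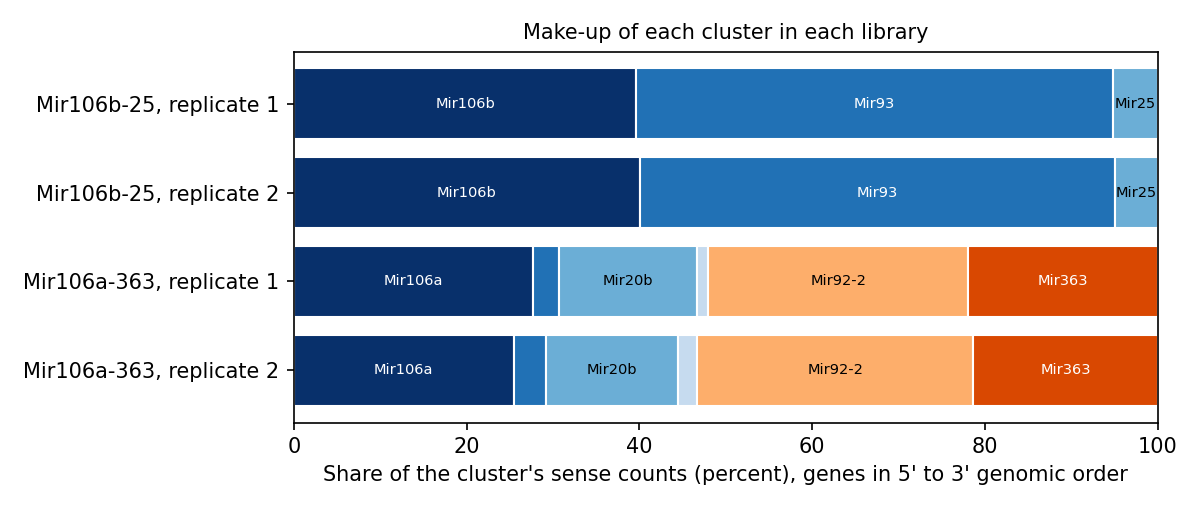
Share of each cluster's sense counts (x axis, percent) taken by each of its genes, in genomic order, with 1 bar per library. Mir93 and Mir106b fill about 95% of both Mir106b-25 bars, while the Mir106a-363 bars are divided among Mir106a, Mir20b, Mir92-2 and Mir363, with Mir18b and Mir19b-2 as the narrow bands without a name before and after Mir20b.

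Against the Mir17-92 cluster on chromosome 14, Mir106b-25 had 0.432 times the counts in replicate 1 and 0.452 times in replicate 2, and Mir106a-363 had 0.00826 and 0.00949 times. Mir17-92 itself took 2.13% and 2.38% of the sense counts. Genes were paired with a Mir17-92 counterpart by family, and within the miR-17 family the pairing was a choice, since miR-93-5p has 4 mismatches with both miR-17-5p and miR-20a-5p. Mir93 had 1.34 and 1.37 times the counts of Mir20a, but lay below Mir17, which averaged 13424 CPM. Mir106b had 0.288 and 0.304 times the counts of Mir17, and Mir25 had 0.213 and 0.223 times those of Mir92-1, whose count may lack reads shared with Mir92-2. The ratios of these 3 genes to their counterparts differed by at most 5.43% between the libraries.

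Of the X-linked genes with a counterpart, Mir106a, Mir20b, Mir18b and Mir92-2 lay further below it than the Mir106b-25 genes did, and Mir19b-2 did not. Mir106a had 0.00384 and 0.00405 times the counts of Mir17, Mir20b 0.00743 and 0.00798 times those of Mir20a, and Mir18b 0.00210 and 0.00291 times those of Mir18. Since miR-106a-5p and miR-17-5p differ at 1 of 23 bases and Mir17 had 254 ± 9.65 times the counts (SD, n = 2), the part of misassigned Mir17 reads in the count of Mir106a was not tested. miR-18b-5p differs from miR-18a-5p, and miR-20b-5p from miR-20a-5p and miR-17-5p, at 2 of 23 bases. The part of misassigned reads in the counts of Mir18b and Mir20b was not tested either. Mir92-2 had 0.0238 and 0.0305 times the counts of Mir92-1. Both give miR-92a-3p, and both counts may lack reads of that arm, so the ratio is not one of miR-92a-3p output. Mir19b-2 had 0.300 and 0.491 times the counts of Mir19b-1, the ratio closest to 1 among the X-linked genes, but from 9 and 26 counts against 30 and 53.

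Low counts in the miR-19 family were not limited to genes with identical copies. Mir19a had 29.6 and 37.7 CPM, against 2570 and 2867 CPM for its neighbour Mir18. The mature arm of Mir19a was listed in no other hairpin, and the longest stretch it shared was 13 bases. That arm still differs from miR-19b-3p at only 1 of 23 bases. Whether reads of Mir19a were lost or misassigned for that reason was not tested. Mir19b-2 and Mir19b-1 averaged 3.58 ± 2.08 and 8.66 ± 2.30 CPM (SD, n = 2). Whether the miR-19 sequence was captured or aligned less well than its neighbours was not tested.

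**Figure D4:**
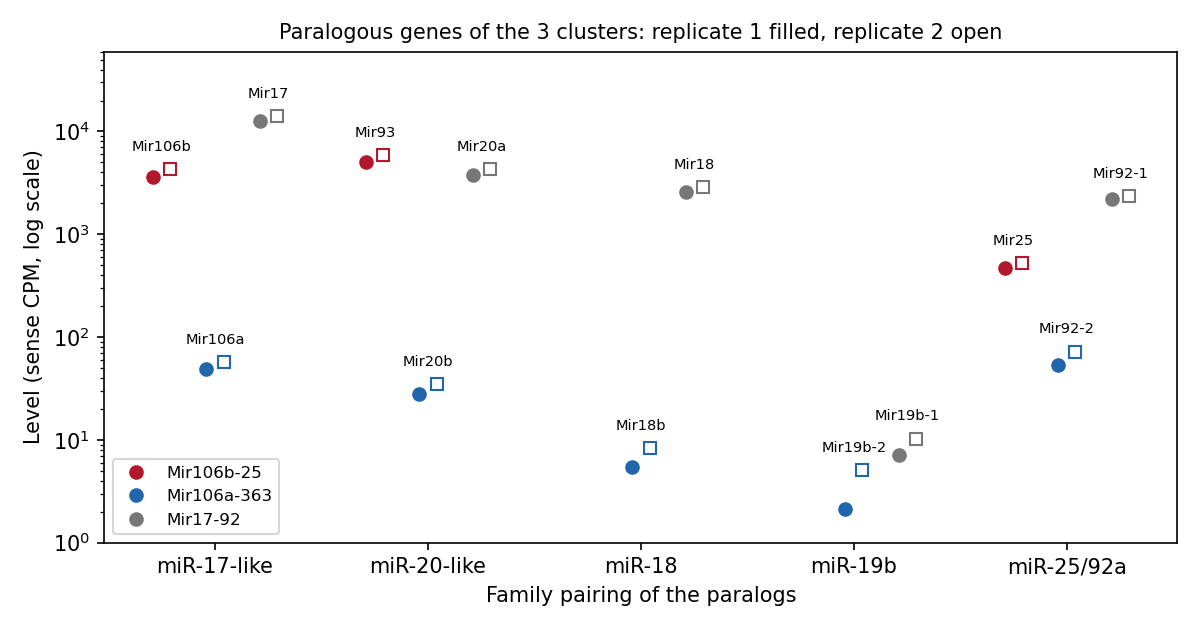
Sense CPM (log scale) of paralogous genes side by side, paired by family, with Mir106b-25 genes in red on the left, Mir106a-363 genes in blue and Mir17-92 genes in grey on the right, replicate 1 filled and replicate 2 open. Mir93 lies above Mir20a and below Mir17, and every X-linked gene lies below the genes it is set beside.

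For shares by seed family, all counts of a gene were assigned to the seed of the arm listed above, although the counts do not separate arms. On that basis, the members contributed mainly miR-17 family counts. Mir106b, Mir93, Mir106a and Mir20b together took 0.880% of the sense counts in replicate 1 and 1.03% in replicate 2. Among all counted genes with the seed AAAGUGC they held 34.9% and 35.8% (Wilson 95% intervals 34.6 to 35.1 and 35.6 to 36.0), while Mir17 and Mir20a held 65.1% and 64.2%. Mir6383, the remaining gene with this seed in the RefSeq table, had 0 counts in both libraries, which allows up to 0.704 CPM in replicate 1 and 0.582 CPM in replicate 2.

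For the seed AUUGCAC, Mir25, Mir92-2 and Mir363 together took 0.0565% and 0.0648% of the sense counts. They held 18.7% and 19.9% of the counted reads of the family, and Mir92-1 held 73.5% and 72.7%, shares that would move if miR-92a-3p reads common to Mir92-1 and Mir92-2 were left out. The other genes with this seed were Mir32 at 123 and 151 CPM, Mir92b at 114 and 89.7 CPM, and Mir367 of the pluripotency cluster at 0 counts in both, with the same limits as above. Mir25 therefore stood above Mir32 and Mir92b, and Mir363 below them, without overlap. Mir18b held 0.209% and 0.290% of the miR-18 family, and Mir19b-2 5.45% and 9.52% of the counted miR-19 family.

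Between the libraries, all 8 detected members were higher in replicate 2, as were 177 of the 340 detected miRNA genes. Of the members, 4 fell below an adjusted p of 0.05 by an exact binomial test on the counts. That test called 50.9% of the 340 detected miRNA genes, 25.3% higher and 25.6% lower in replicate 2, so a call alone sets a member apart little. The median log2 ratio of the 8 members was 0.27, beside 0.02 for all detected genes. The spread of the log2 ratio over all detected genes had an SD of 0.38, and each detected member but Mir18b and Mir92-2 lay within that distance of 0. The test asks whether 2 pools differ by more than read sampling, and no condition enters it.

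In the Mir106b-25 cluster all 3 genes passed. By log2 ratio, Mir106b differed by 0.24, Mir93 by 0.22 and Mir25 by 0.16, with adjusted p of 2.83e-57, 1.48e-67 and 0.000525 in the exact binomial test. Of all detected genes, 79.4%, 77.6% and 70.3% had a lower log2 ratio than Mir106b, Mir93 and Mir25 in that order. The low p-values of Mir106b and Mir93 come with ratios of 1.18 and 1.17 and the largest counts among the members.

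In the Mir106a-363 cluster 1 gene of the 5 detected passed. For Mir92-2 the log2 ratio was 0.45, with an exact 95% interval of 0.20 to 0.69 and an adjusted p of 0.000621. Mir363 had 0.32 (0.03 to 0.62) with an adjusted p of 0.0507, which passed at 0.0384 when at least 100 counts were required and at 0.0438 when both strands were counted. Mir106a had 0.24 (-0.02 to 0.51), Mir20b 0.30 (-0.05 to 0.64) and Mir18b 0.63 (-0.13 to 1.43), with adjusted p of 0.117, 0.152 and 0.172 in the exact binomial test. The intervals of all 5 genes hold the log2 ratio of Mir93, so at this depth they could not be told from it. Mir19b-2, not tested, had 2.39 times the CPM in replicate 2.

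The Mir17-92 cluster was read in the same libraries, and its 6 detected genes had log2 ratios of 0.09 to 0.55, with 4 past the threshold and a median of 0.18. Of the other genes with the seed AUUGCAC, Mir32 was higher in replicate 2 by a log2 ratio of 0.29, and Mir92b was lower, at -0.35, with adjusted p of 0.000726 and 0.000453 by the exact binomial test. Genes with the same seed thus did not all have a ratio in the same direction.

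**Figure D5:**
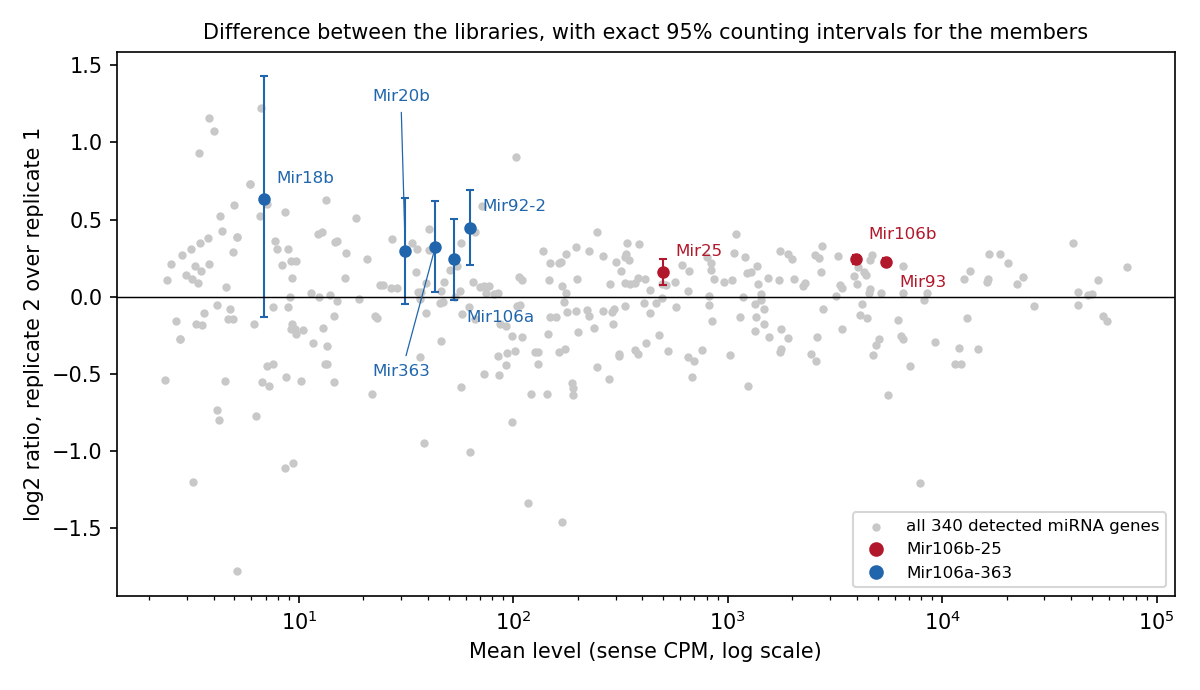
Log2 ratio of CPM, replicate 2 over replicate 1, against mean level (sense CPM, log scale) for the 340 detected miRNA genes in grey, the Mir106b-25 genes in red and the detected Mir106a-363 genes in blue, with exact 95% counting intervals for the members. All 8 coloured points lie above 0, between 0.16 and 0.63, and the intervals narrow as the level increases.

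No antisense count was found at any of the 9 members in either library, which allows up to 0.704 and 0.582 CPM each. By level alone, measured as the distance of log2(CPM + 1) over the 2 libraries, the detected genes outside the clusters nearest to Mir93 were Mir125a (distance 0.18), Mir744 (0.33) and Mir181c (0.36). Their means were 5177, 4697 and 4623 CPM. Nearest to Mir106a were Mir190a (0.06), Mir331 (0.10) and Mir192 (0.16), with 54.4, 50.7 and 57.2 CPM. With 2 libraries this measure describes a similar count and no shared pattern.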

How the data were processed

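Small RNA below 30 nt from total RNA was sequenced, per the labels. The deposited tables hold raw counts of reads for each miRNA gene, made on assembly mm10 and annotation M4 (deposited README). Their 3 columns were read from the values as counts on either strand, sense and antisense. The aligner, counter and trimming are not given in the sources used here. Symbols and positions came from GENCODE M21 on GRCm38, the assembly of mm10 (1894 of 1973 identifiers matched), and sequences from RefSeq. The libraries had 9187400 and 10851823 reads, of which 46.4% and 47.5% were sense counts. The 4 summary lines, with 19.7% and 18.8% of reads unmapped, entered these read totals but not the sense totals.

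CPM are sense counts over the library's sense total, times 1000000. Genes with at least 10 counts in both libraries were tested two-sided by the exact conditional binomial test, Benjamini-Hochberg adjusted over all 340 (scipy 1.17.1, Python 3.11.15), after the test was checked on simulated counts. With 1 group, no quasi-likelihood test could be made. Alternative library sizes came from edgeR 4.0.16 and DESeq2 1.42.0 in R 4.3.3. Intervals and floors (3 counts for a count of 0) cover counting error only. Named genes are the 9 members, the Mir17-92 genes, genes with the same seed, and the 3 genes nearest in level to Mir93 and to Mir106a. Members and lists were chosen with earlier results of these data known.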

Additional observations from a re-analysis of the deposited data

How the results depend on the processing

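Leaving out replicate 1 or replicate 2 moved each level, share and ratio by less than 1 SD, which holds by construction for a mean of 2. Without one replicate, the share of Mir106b-25 ranged from 0.920 to 1.08% and that of Mir106a-363 from 0.0176 to 0.0226%. Taken over all reads, Mir106b-25 held 0.469% and Mir106a-363 0.00943%, and members of the miR-17, miR-25 and miR-18 families held 0.449%, 0.0285% and 0.000323%, because the denominator is larger. With edgeR or DESeq2 library sizes 4 of 8 members passed, beside 50.3% and 49.1% of all genes tested, and none changed direction. Mir363 alone crossed the threshold, and only with at least 100 counts (5 of 7 members tested, beside 67.6% of all genes) or with both strands counted (5 of 8, beside 52.7%). Without a count minimum, 24.6% of 694 genes were called, since low counts rarely pass. No paired analysis was possible because the series has 1 group, and no test between libraries can be made without a replicate. Depth limits Mir18b and Mir19b-2, and reads with several alignments may limit Mir19b-2, Mir92-2 and their copies Mir19b-1 and Mir92-1. Whether reads of genes with near copies, such as Mir106a, Mir18b, Mir20b and Mir19a, were also lost or misassigned was not tested.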
